A study of Mus musculus with 2 samples.

Results

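The 47 genes described here drive or mark the division of cells: 20 of DNA synthesis (S phase), 22 of the passage through G2 and mitosis (G2/M), and 5 of chromosome structure and the cytoskeleton that rise in dividing cells. They were taken by name from a list of replication and mitosis genes, and all 47 were found among the 20299 genes of the matrix. The kidneys came from C57BL/6 mice, male and 8 weeks old, with nephrotoxic serum nephritis (NTN): 200 µg sheep IgG in Freund's complete adjuvant, then, 4 days later, 2 µl per g of body weight of serum against the glomerulus, a dose taken from the labels that differs from the one in the study's methods. One group was WT, and the other was Vsir-/-, without the checkpoint gene Vsir (VISTA) in every cell, from a strain rederived from stored sperm. Each genotype gave 1 single-cell library of 3′-end molecules (10x, chemistry version 3.1), so the comparison between genotypes has no replicate check, and neither the mice per library nor the sampling day could be learned from the labels or methods.

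The libraries differed in what they held. Per the labels, the WT library was sorted for CD45+ leukocytes and the Vsir-/- library held all kidney cells, whereas the study's methods name the CD45+ sort for both. UMIs (unique molecular identifiers, 1 per captured RNA molecule) of Ptprc, the gene of CD45, were found in 94.2% of the 5470 cells from WT mice and in 73.6% of the 1844 from Vsir-/- mice. The libraries held 32799550 and 18601189 UMIs, with medians of 4726.5 and 6673 UMIs per cell. Vsir itself was at 130 UMIs per 1000000 (counts per 1000000, CPM; 95% Poisson interval 127 to 134) in WT and 0.430 CPM (0.186 to 0.847; 8 UMIs) in Vsir-/- cells. Tubule markers, 16 genes, lay between 888 and 12415 CPM in every Vsir-/- cluster, and between 3.56 and 136 CPM in every WT cluster but neutrophils (4090 CPM), which also express the listed gene Lcn2. The Vsir-/- cluster named CD4+ T, non-EM-like (not resembling effector memory cells) had 399 CPM of 6 T cell markers against 12415 CPM of tubule markers, so its name is not borne out there. Cell barcodes shared by both libraries numbered 5, and 0 of them lay among Proliferating cells. All intervals below are 95% intervals that cover counting error only.

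The cell cycle runs on waves of transcription. In late G1, E2F factors switch on the enzymes of DNA synthesis: the MCM helicase that opens the double helix, its loaders and activators, the clamp PCNA, and the makers of deoxynucleotides. Later, complexes of B-Myb and FOXM1 switch on mitotic genes through a promoter element called the cell cycle genes homology region (CHR), often with CCAAT boxes nearby. Their products include cyclin B with its kinase CDK1, the centromere and kinetochore proteins, the spindle motors, and the machinery that destroys cyclins at the end of mitosis. In the kidney with nephritis, infiltrating lymphocytes, resident macrophages, and tubule and endothelial cells can all divide.

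The promoters of both lists differed in these letters. RefSeq promoters (GRCm38.p6, 250 bases before to 50 after the start) were found by symbol for 40 of the 47 genes. A CHR (TTTGAA or TTTAAA, either strand) was present in 17 of 19 G2/M genes (89.5%), in 6 of 18 S genes (33.3%), and in 27.8% of all genes with a promoter. A CCAAT box was present in 17 of 19 G2/M genes (89.5%), 12 of 18 S genes (66.7%), and 37.9% of all genes. An E2F-type site (TTTCCCGC, TTTGGCGC, or TTTCGCGC, which can overlap) was present in 6 of 18 S genes (33.3%), 1 of 19 G2/M genes (5.26%), and 1.91% of all genes. Such matches are a description of the letters and no evidence of binding in these cells. The 120 bases before the start are shown for 4 genes, 1 S gene with E2F-type sites and 3 G2/M genes with a CHR, each 5′ to 3′ with the matches in capitals. Matches on the opposite strand are capitalised as they read on the strand shown.
Mcm6 (chr1:128359706-128359825, minus strand): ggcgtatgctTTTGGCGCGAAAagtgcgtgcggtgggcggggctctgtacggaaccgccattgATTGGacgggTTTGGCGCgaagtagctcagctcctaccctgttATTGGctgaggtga
Top2a (chr11:99024190-99024309, minus strand): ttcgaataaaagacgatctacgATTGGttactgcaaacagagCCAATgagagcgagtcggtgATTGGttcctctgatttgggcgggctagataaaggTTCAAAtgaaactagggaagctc
Mki67 (chr7:135716380-135716499, minus strand): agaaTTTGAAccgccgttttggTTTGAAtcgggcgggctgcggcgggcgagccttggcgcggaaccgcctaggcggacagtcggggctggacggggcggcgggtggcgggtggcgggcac
Kif11 (chr19:37376262-37376381, plus strand): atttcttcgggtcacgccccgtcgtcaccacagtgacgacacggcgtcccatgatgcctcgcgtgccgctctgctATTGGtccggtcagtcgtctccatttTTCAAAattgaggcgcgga
Mcm6 encodes a subunit of the replicative helicase, and both of its printed E2F-type stretches lie upstream of its CCAAT boxes or between them. Top2a (topoisomerase that untangles sister chromatids), Mki67 (the Ki-67 coat protein of mitotic chromosomes), and Kif11 (the motor that pushes spindle poles apart) each show at least 1 CHR in capitals.

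The Proliferating cell cluster, named by the authors, held 118 WT cells (2.16% of the library's cells and 6.13% of its UMIs) and 189 Vsir-/- cells (10.2% and 23.9%). Its cells were deep, with medians of 15616 and 14879 UMIs. Since the authors clustered the cells on genes that include these, their height in the cluster is a description and not a test. The G2/M list stood at 6126 CPM inside and 140 CPM outside the cluster in WT, and at 4948 and 307 CPM in Vsir-/- cells. The S list stood at 3312 inside and 437 CPM outside in WT, and at 1844 and 524 CPM in Vsir-/- cells. The G2/M list was thus concentrated in the cluster, with 74.0% (WT) and 83.5% (Vsir-/-) of its UMIs there. The cluster held 33.1% and 52.5% of the S list's UMIs. Slbp alone gave 3479 of the 13469 S UMIs outside the cluster in WT.

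**Figure D1:**
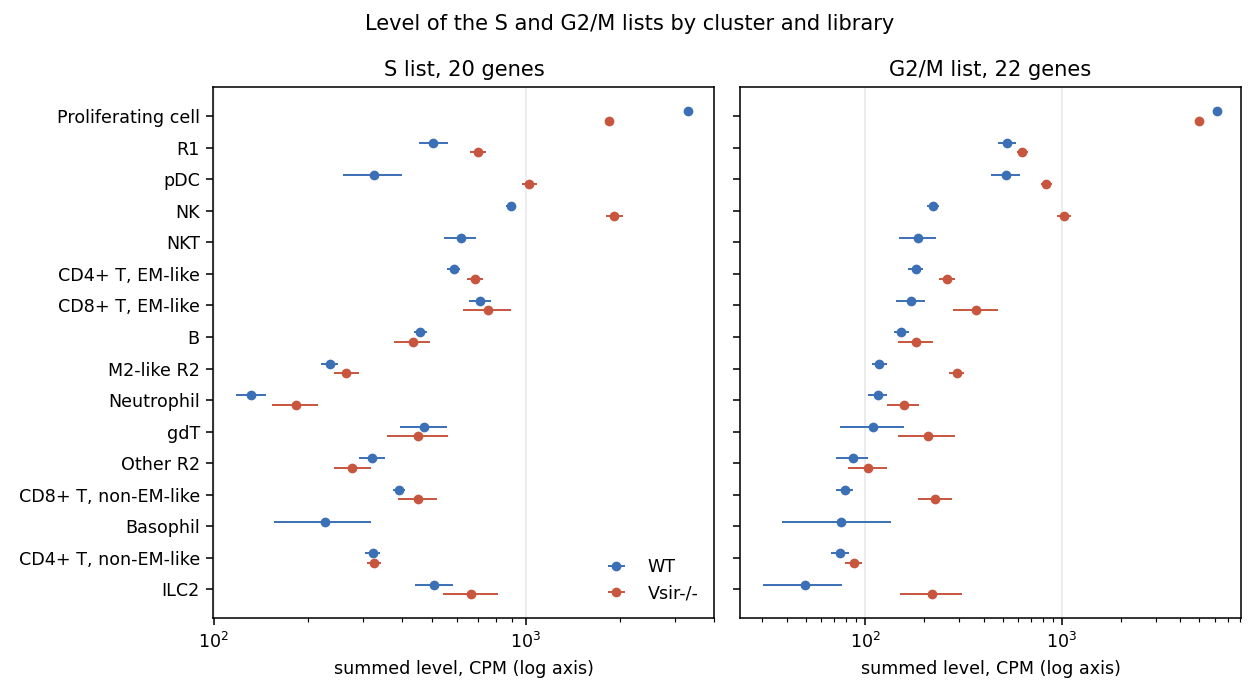
Summed level of the S list (left) and the G2/M list (right) in each cluster, in CPM on a log axis, with exact Poisson intervals; blue is WT and red Vsir-/-, and clusters under 19 cells are not drawn. The Proliferating cluster lies above every other cluster for G2/M in both libraries, and for S the Vsir-/- NK cluster (1920 CPM) lies beside the Vsir-/- Proliferating cluster (1844 CPM). Without the 5 cells with the most S and G2/M UMIs, the Vsir-/- NK value for S was 1112 CPM (not drawn).

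Against all other cells of the same library, 43 of 47 genes were at least 4-fold higher in WT Proliferating cells, beside 3.70% of the 12603 genes with 20 or more UMIs. In Vsir-/- cells 34 of 47 were, beside 4.25% of 14217 genes. Every one of the 22 G2/M genes passed in both libraries, but 17 of 20 S genes passed in WT and 8 of 20 in Vsir-/- cells. Median log2 ratios were 6.23 (WT) and 4.13 (Vsir-/-) for G2/M and 3.17 and 1.80 for S, against -0.03 and 0.25 over all genes tested.

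Mcm2 to Mcm7, the 6 subunits of the helicase ring, had log2 ratios of 1.93 to 3.39 in WT and 1.02 to 1.65 in Vsir-/- cells, below the S median in each case but that of Mcm5 in WT. Mcm2 was at 63.7 CPM inside and 16.7 outside in WT, and at 45.9 and 18.1 CPM in Vsir-/- cells. Mcm5 was at 184 CPM inside and 17.6 outside in WT, and at 81.7 and 26.0 in Vsir-/- cells. Cdc45 (a helicase activator) had log2 ratios of 4.61 (4.18 to 5.06) and 2.40 (1.98 to 2.84), and Gins2, from the GINS complex that binds beside it, 2.86 (2.47 to 3.23) and 1.90 (1.59 to 2.22). Cdc6, which helps to load the helicase, had 4.34 (3.80 to 4.89) and 2.61 (2.15 to 3.10). Cdc45 and Cdc6 therefore stood further above other cells than each helicase subunit did in both libraries.

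Among the makers of DNA precursors were the S genes with the largest ratios in both libraries, Rrm2 and Tk1. Rrm2, the regulated subunit of ribonucleotide reductase, was at 347 CPM inside and 3.77 outside in WT (91.7-fold), and at 155 and 12.9 CPM in Vsir-/- cells (12.1-fold). Its partner Rrm1, the catalytic subunit, was 11.6-fold and 4.49-fold higher. Tk1 (thymidine kinase) was 34.3-fold and 7.57-fold higher, and Tyms (thymidylate synthase) 23.9-fold and 6.88-fold. Dut (dUTPase, which keeps uracil out of DNA) was 10.2-fold higher in WT and 3.74-fold in Vsir-/- cells.

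The clamp, repair, and chromatin members ran from broad to restricted. Pcna, the sliding clamp, was at 260 CPM inside and 52.3 outside in WT, and at 248 and 95.7 CPM in Vsir-/- cells. Its level inside was thus nearly the same over clusters of unlike make-up, while the level outside differed. In the Proliferating cells led by T cell markers and without NK markers (described below), Pcna was at 269 (WT) and 520 CPM (Vsir-/-). Slbp (histone mRNA binding protein) and Ung (uracil DNA glycosylase) were the S genes with the lowest WT ratios, 3.01-fold and 2.37-fold. Fen1 (the flap nuclease of lagging strands) was 8.00-fold and 3.25-fold higher. Clspn (claspin, a checkpoint adaptor at the fork) was 13.1-fold and 6.75-fold higher, and Uhrf1 (which recruits maintenance DNA methylation) 27.5-fold and 5.49-fold.

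The cyclins and kinases of mitosis had most of their UMIs in the cluster, from 72.4% (Aurka) to 93.4% (Ccna2) in WT and from 75.8% (Aurkb) to 88.9% (Plk1) in Vsir-/- cells. Ccna2 (cyclin A2) was at 238 CPM inside and 1.10 outside in WT, and at 144 and 6.78 CPM in Vsir-/- cells. Ccnb1 (cyclin B1) was at 126 and 1.14 CPM in WT, and at 94.9 and 4.73 CPM in Vsir-/- cells. Cdk1, their kinase, was 82.3-fold and 18.0-fold higher, and Ccnb2 40.5-fold and 13.9-fold. Plk1 (polo-like kinase) was 153-fold and 25.1-fold higher, Aurka (centrosomal aurora kinase) 39.8-fold and 14.4-fold, and Aurkb (the aurora kinase of the chromosomal passenger complex) 47.7-fold and 9.97-fold. Birc5 (survivin), its partner in that complex, was at 526 CPM inside and 4.48 outside in WT, and at 304 and 23.9 CPM in Vsir-/- cells. In all 8 genes the WT fold was larger than the Vsir-/- fold, and in all 8 the level outside the cluster was lower in WT.

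The checkpoint, kinetochore, and exit genes other than Cenpa and Kif23 had between 74.8% (Cdc20) and 88.5% (Bub1) of their UMIs in the cluster in WT, and between 75.6% (Bub1b) and 93.8% (Cenpf) in Vsir-/- cells. Bub1 and Bub1b, spindle checkpoint kinases, were 115-fold and 57.0-fold higher in WT, and 17.1-fold and 9.85-fold in Vsir-/- cells. Cdc20, the activator of the anaphase promoting complex, was at 145 CPM inside and 3.18 outside in WT, and at 189 and 5.93 CPM in Vsir-/- cells. Ube2c, the ubiquitin conjugating enzyme of that complex, was at 561 and 6.89 CPM, and at 468 and 24.2 CPM. Cenpf, a kinetochore protein, was the member with the highest Vsir-/- ratio, 48.3-fold (log2 5.59, 5.36 to 5.84), at 537 CPM inside against 320 CPM in WT. Cenpe (the kinetochore kinesin) was 51.1-fold and 16.9-fold higher. The less restricted genes were Cenpa, the histone H3 variant of centromeres, at 8.00-fold and 6.69-fold, and Kif23, a kinesin of cytokinesis, at 6.34-fold and 5.54-fold. Outside the cluster Cenpa was highest in WT B cells, at 87.9 CPM (78.3 to 98.3), and Kif23 in neutrophils, at 64.5 CPM (54.9 to 75.3) in WT and 68.2 CPM (51.1 to 89.2) in Vsir-/- cells.

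The spindle genes included Hmmr, the member with the largest WT ratio. Hmmr (a spindle assembly factor) was at 159 CPM inside and 0.715 outside in WT, 217-fold (log2 7.76, 7.17 to 8.49), and at 223 and 6.36 CPM in Vsir-/- cells, 34.9-fold. Nusap1 (a microtubule binding protein) was 146-fold and 20.3-fold higher, Kif11 111-fold and 16.1-fold, and Tpx2 (which activates aurora A) 76.0-fold and 19.4-fold. Mki67 was at 855 CPM inside and 11.9 outside in WT, and at 692 and 35.7 CPM in Vsir-/- cells. Top2a was at 892 and 17.2 CPM in WT, and at 524 and 44.5 CPM in Vsir-/- cells.

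Of the 5 structural genes, Hmgb2 and Tubb5 were the most abundant outside the cluster in both libraries. Next came Smc4 in WT and Stmn1 in Vsir-/- cells. Stmn1 was at 54.3 (WT) and 121 CPM (Vsir-/-) outside the cluster, and Smc2 at 22.6 and 29.9 CPM. Hmgb2, a chromatin protein, was at 5058 CPM inside and 493 outside in WT, and at 1781 and 462 CPM in Vsir-/- cells. Its highest level elsewhere in WT was in neutrophils, 1102 CPM (1061 to 1144). Stmn1 (stathmin, which takes microtubules apart) was 27.8-fold and 10.2-fold higher, Tubb5 (a beta tubulin) 7.38-fold and 4.25-fold, and Smc2 (a condensin subunit) 17.6-fold and 8.57-fold. Smc4, the other subunit of the condensin core, was the only member of the 47 with a larger Vsir-/- than WT ratio, 4.38-fold against 3.05-fold. Outside the cluster it stood at 171 (WT) and 83.1 CPM (Vsir-/-).

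**Figure D2:**
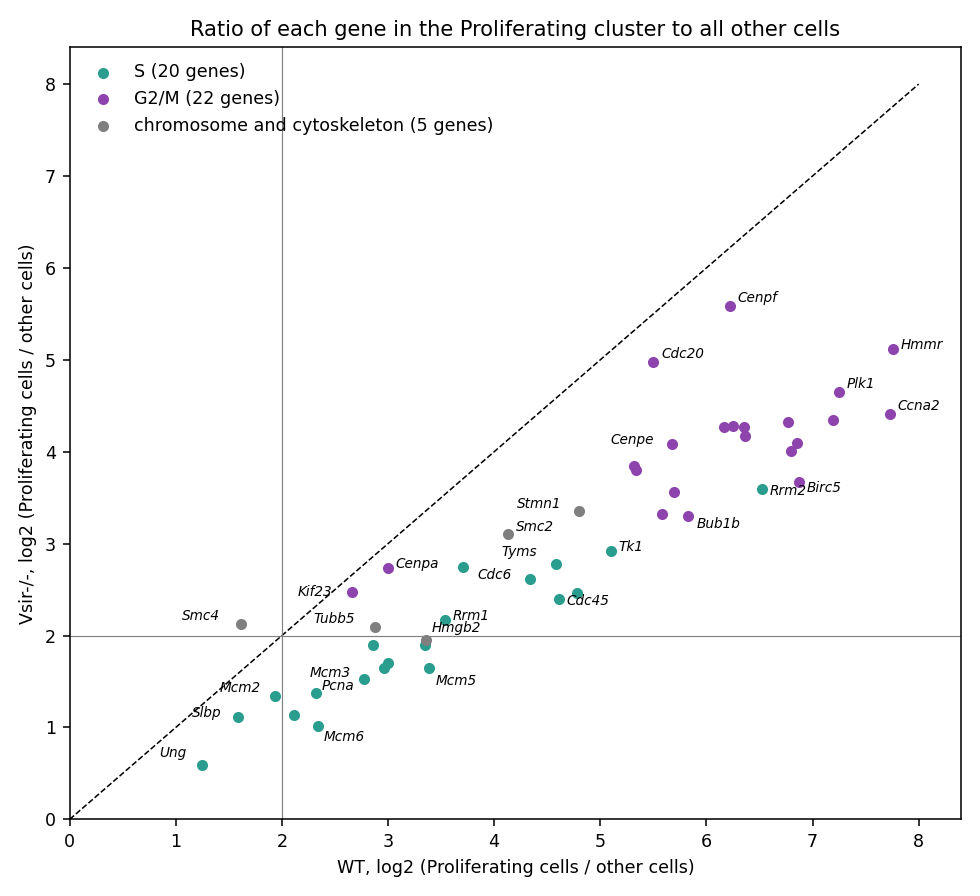
Each point is 1 gene, with the log2 ratio of Proliferating over all other cells in WT (x axis) and in Vsir-/- cells (y axis); grey lines mark the 4-fold limit and the dashed line equal ratios. The G2/M genes lie to the upper right, 46 of the 47 genes lie below the dashed line, and Smc4 (1.61 and 2.13) lies above it.

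Ranks of clusters were worked out for the members only, so the counts here have no share over all genes beside them. In WT, all 47 genes had their highest cluster level among Proliferating cells. In Vsir-/- cells this held for 22 of 22 G2/M genes, 5 of 5 structural genes, and 7 of 20 S genes. For 12 of the other 13 S genes the highest cluster was NK, and for Ung it was CD8+ T, non-EM-like, at 31.7 CPM (14 UMIs). Mcm6, for example, was at 182 CPM in the 67 Vsir-/- NK cells and 79.2 CPM in Vsir-/- Proliferating cells, whereas in WT it was at 109 CPM in NK and 212 CPM in Proliferating cells. Pcna was likewise at 276 CPM in NK and 248 CPM in Proliferating cells of the Vsir-/- library. The Vsir-/- Proliferating cluster is mixed, and its 39 cells led by T cell markers (described below) stood at 3640 CPM for the S list. The S list of the Vsir-/- NK cluster, at 1920 CPM, fell to 1112 CPM without the 5 cells with the most S and G2/M UMIs.

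Other genes of the cycle, 77 on a list grouped by role, differed by role. At least 4-fold higher in Proliferating cells were, in WT, 30 of 32 mitosis genes, 16 of 21 replication genes, 5 of 16 G1 and commitment genes, and 2 of 8 inhibitors. In Vsir-/- cells the counts were 26, 8, 3, and 2. In all, 53 of 77 (WT) and 39 of 77 (Vsir-/-) passed, beside 3.70% and 4.25% of all genes tested, and 8 and 9 lay below 0. Median log2 ratios ran from 5.15 (mitosis) to -0.16 (inhibitors) in WT and from 3.53 (mitosis) to 0.79 (inhibitors) in Vsir-/- cells. The largest WT ratios were those of Kif2c (a microtubule depolymerase; log2 7.48), Kif4 (a chromosome kinesin; 7.34), and Cdc25c (the phosphatase that activates CDK1; 6.96). The largest Vsir-/- ratios were those of Prc1 (which bundles midzone microtubules; 4.93), Ckap2 (a spindle protein; 4.91), and Anln (anillin, of the cleavage furrow; 4.74). The antiproliferative genes Btg1 and Btg2 lay lower in Proliferating cells in both libraries, at log2 -1.50 and -1.23 in WT and -1.48 and -1.37 in Vsir-/- cells, as did Cdkn1b (the inhibitor p27) at -0.92 and -0.90. Ccnd1 (cyclin D1) lay lower in WT, at -1.65 on 5 UMIs in the cluster, and higher in Vsir-/- cells, at 0.99 (559 against 282 CPM). Outside the cluster Ccnd1 was at 8.57 CPM in WT, and the Vsir-/- cluster held mostly cells led by tubule or endothelial markers (described below). These low genes were named as the 3 lowest of each library. Of the 8 inhibitors, 4 in WT and 3 in Vsir-/- cells lay below 0. Across the whole matrix the 10 genes outside the 47 with the highest ratio in the lower of the libraries were Aspm, Pimreg, Depdc1a, Prc1, Ckap2, Sgo2a, Mxd3, Anln, Pbk, and Cdca2, with WT ratios from 5.14 to 7.67 and Vsir-/- ratios from 4.58 to 5.33.

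The cells of the cluster were not of the same kind in both libraries. Each cell was placed by which of 3 marker lists had the most UMIs: 6 T cell genes (T-led), 16 tubule genes (tubule-led), or 4 endothelial genes (endothelial-led), a grouping chosen after the data were seen. The WT cluster held 110 T-led, 1 tubule-led, and 0 endothelial-led cells, with 7 that had no leader. The Vsir-/- cluster held 39 T-led, 94 tubule-led, and 55 endothelial-led cells, with 1 that had no leader. Ptprc was found in 109 of 110 WT T-led cells and 39 of 39 Vsir-/- T-led cells, but in 21 of 94 tubule-led and 10 of 55 endothelial-led cells. Tubule-led cells carried 5421 CPM of 6 proximal tubule genes (all 6 detected), 6400 CPM of 5 injured tubule genes, mostly Spp1 at 5876 CPM, and 870 CPM of 5 distal genes. They also held stroma markers at 606 CPM (22 of 94 cells) and NK markers at 125 CPM (9 cells), and 36 cells held macrophage markers. Injured tubule markers were in all 39 Vsir-/- T-led cells as well, at 319 CPM. With only 3 lists to choose from, cells of other kinds can fall into the tubule-led group. Endothelial-led cells carried 5328 CPM of 4 endothelial genes (all 4 detected, Emcn highest at 2969 CPM). T-led cells carried 2772 CPM of the T cell list in WT and 4932 CPM in Vsir-/- cells, with 6 of 6 genes detected in each.

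The T-led cells also differed between libraries in markers of NK cells, whose transcripts overlap those of T cells. Of 4 NK genes (Ncr1, Klrb1c, Klre1, Klra8) at least 1 UMI was found in 80 of 110 WT T-led cells (1051 CPM over the group) and in 5 of 39 Vsir-/- T-led cells (101 CPM). The WT NK cluster itself had 1120 CPM of the T cell list. A UMI of Cd4, Cd8a or Cd8b1 was found in 55 of 110 WT and 28 of 39 Vsir-/- T-led cells. No NK gene was on the 3 lists that placed the cells. In the NK cluster 53 of 67 Vsir-/- cells were tubule-led by these lists, against 14 of 594 WT cells. The placing itself can therefore make the T-led groups differ in NK markers, and how much it did was not tested. T-led cells without an NK UMI numbered 30 in WT and 34 in Vsir-/- cells, with 4758 and 5328 CPM of T cell genes.

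The marker groups of cells differed in level. T-led cells had 3344 CPM (WT) and 3640 CPM (Vsir-/-) of the S list, and 6090 and 7974 CPM of the G2/M list. Tubule-led cells had 1818 and 5476 CPM, and endothelial-led cells 1383 and 3617 CPM, for S and G2/M. The endothelial-led cells, with a median of 31223 UMIs against 11767 for Vsir-/- T-led and 13875 for tubule-led cells, thus had the lowest level of both lists. As CPM, a level is a share of all RNA captured. In UMIs per cell the endothelial-led cells held 53.2 of the S list and 139 of the G2/M list, Vsir-/- T-led cells 52.4 and 115, and tubule-led cells 33.9 and 102, so the lower CPM of endothelial-led cells went with more UMIs of other genes and not with fewer of these.

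Against Vsir-/- T-led cells, 18 of 47 genes were at least 2-fold lower in tubule-led cells and 0 higher, beside 11.1% lower and 34.8% higher of 10039 genes. The median of the 47 was -0.94 on the log2 scale and that of all genes 0.40. The 6 helicase subunits were all among the 18, with log2 ratios of -1.55 (Mcm3) to -1.02 (Mcm7). Mcm3 was at 79.9 CPM in tubule-led, 233 in Vsir-/- T-led, and 175 CPM in WT T-led cells. Hmgb2 was at 1378 CPM in tubule-led, 5523 in Vsir-/- T-led, and 5108 CPM in WT T-led cells (interval of the log2 ratio to Vsir-/- T-led cells, -2.08 to -1.93). The genes not lower in tubule-led cells were Hmmr (360 against 205 CPM; log2 0.81, 0.52 to 1.11), Cenpf (644 against 459 CPM; 0.49, 0.29 to 0.69), Gins2 (0.21, -0.37 to 0.87), and Cenpe (0.01, -0.27 to 0.31). For Gins2 and Cenpe the interval held 0.

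In endothelial-led cells 35 of 47 genes were at least 2-fold lower than in T-led cells and 0 higher, beside 12.0% lower and 33.0% higher of 9883 genes, with a median of -1.26 against 0.35 over all genes. Of the 20 S genes 19 were called, the exception being Tk1 (95.0 against 125 CPM; -0.40, -0.79 to 0.02), and of the 22 G2/M genes 13 were. Cenpf was level with T-led cells, at 455 and 459 CPM (-0.01, -0.21 to 0.19). Dut was at 92.2 CPM in endothelial-led and 415 CPM in T-led cells, and Top2a at 359 and 1105 CPM. Both comparisons were within the Vsir-/- library and so share its preparation.

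**Figure D3:**
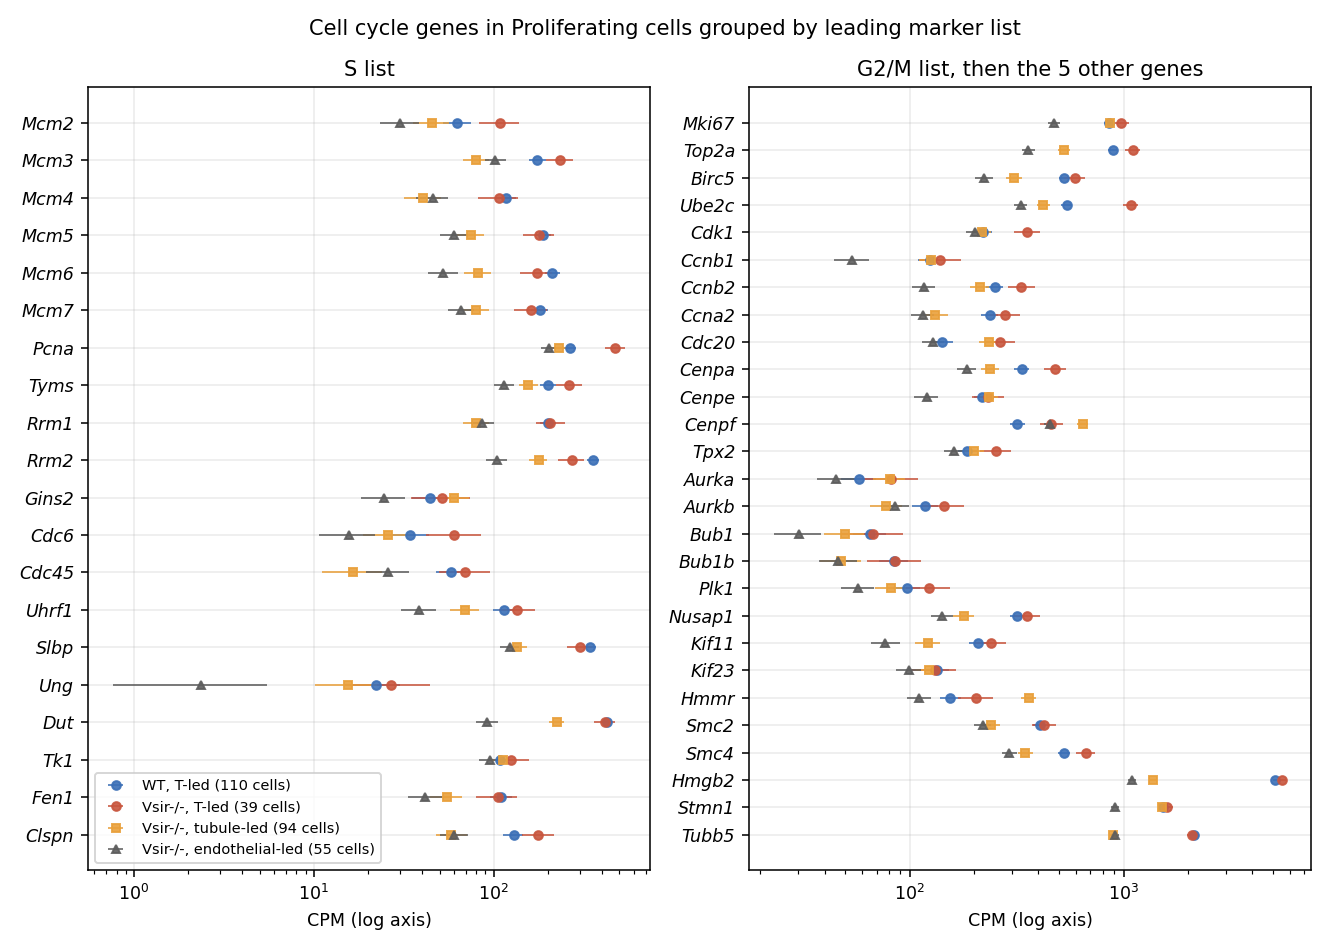
Level of each gene in Proliferating cells, in CPM on a log axis with exact Poisson intervals, for WT T-led (blue), Vsir-/- T-led (red), tubule-led (orange squares), and endothelial-led cells (grey triangles). Both T-led groups lie to the right of tubule-led and endothelial-led cells for the helicase genes and Hmgb2, except that for Mcm2 the WT T-led interval (52.1 to 75.0 CPM) meets that of tubule-led cells (35.7 to 56.2 CPM), whereas Cenpf (644 CPM) and Hmmr (360 CPM) are highest in tubule-led cells.

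Between genotypes, the members were compared in 3 sets of Proliferating cells. Among Proliferating cells with at least 1 T cell UMI (114 WT and 66 Vsir-/-), 0 of 47 genes were 2-fold or more higher and 0 lower in Vsir-/- cells, beside 24.2% and 6.21% of 10003 genes. The median log2 ratio was -0.30 against 0.22 over all genes, and 39 of 47 genes lay below 0. These 66 cells held endothelial markers at 2208 and tubule markers at 1694 CPM, against 30.3 and 35.9 CPM in the 114 WT cells. In T-led cells the direction turned: the median was 0.24 against 0.05 over all genes, 37 of 47 lay above 0, and again 0 were 2-fold higher and 0 lower, beside 5.75% and 6.88% of 8082 genes. In T-led cells without an NK UMI the median was 0.14 against 0.04, 32 of 47 lay above 0, 1 was 2-fold higher and 0 lower, beside 6.87% and 3.47% of 5476 genes.

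Single genes can be followed through these groups. Ube2c was at 543 CPM in WT and 1082 CPM in Vsir-/- T-led cells, a log2 ratio of 0.99 (0.85 to 1.14), the largest of the 47 there. Cdc20, its partner in the anaphase promoting complex, was at 142 and 265 CPM (0.91, 0.61 to 1.20), and Pcna at 264 and 473 CPM (0.85, 0.63 to 1.06). Rrm2 was the lowest, at 356 and 271 CPM (-0.39, -0.66 to -0.14). Without cells that held an NK UMI, the gene past 2-fold was Cdc6, at 16.6 CPM (8 UMIs) in WT and 61.6 CPM (29 UMIs) in Vsir-/- cells, and Pcna was at 269 and 520 CPM (0.95, 0.64 to 1.27). Ube2c was then at a log2 ratio of 0.63 (0.43 to 0.84), Cdc20 at 0.25 (-0.15 to 0.65) and Rrm2 at -0.16 (-0.50 to 0.17). For Cdc20 and Rrm2 the interval then held 0. In each case 1 library stands for each genotype.

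The balance of S against G2/M differed between the groups of cells. S genes gave 35.1% of phase UMIs (S plus G2/M) in all WT Proliferating cells and 27.1% in all Vsir-/- ones. In T-led cells the shares were 35.4% (34.8 to 36.1) and 31.3% (30.2 to 32.5). In tubule-led cells the share was 24.9% (24.2 to 25.7), and in endothelial-led cells 27.7% (26.8 to 28.5). As a median over cells the order was another, at 36.9% in WT T-led, 27.7% in Vsir-/- T-led, 15.3% in tubule-led, and 35.4% in endothelial-led cells. In T-led cells without an NK UMI the shares were 33.2% (31.9 to 34.5) in WT and 33.3% (32.1 to 34.6) in Vsir-/- cells, and these intervals overlapped. Outside the Proliferating cluster S genes made up most of the phase UMIs in most clusters, from 38.6% (pDC) to 91.1% (ILC2) in WT and from 47.6% (M2-like R2) to 78.8% (CD4+ T, non-EM-like) in Vsir-/- clusters other than basophils, of which there were 2 cells. In WT, Slbp, Pcna, Dut and Ung gave 3479, 1610, 1279 and 287 of the 13469 S UMIs outside the cluster. A high S share there therefore need not mean cells in S phase.

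To describe how the members move together within the cluster, cells of each marker group were ranked by the S share of their phase UMIs. The gene looked at was left out, and the cells were split into a higher and a lower part. The split rests on other members of the S and G2/M lists, so some agreement is built in. Genes other than the members were not compared, so no share over all genes stands beside the counts. Of 20 S genes, 20 were higher in the S-rich part of WT T-led cells, 20 in Vsir-/- T-led cells, 20 in tubule-led cells, and 19 in endothelial-led cells. Of 22 G2/M genes, 22, 22, 20, and 21 were lower there. The parts also differed in depth, with medians near 19863 UMIs in the S-rich and 48818 in the S-poor part of endothelial-led cells, 15315 and 11478 in tubule-led, 10591 and 13166 in Vsir-/- T-led, and 16386 and 15666 in WT T-led cells. The part of depth in the split was not tested.

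Among the steepest S genes in each group was the loader Cdc6, at 59.1 CPM in S-rich and 9.35 CPM in S-poor WT T-led cells, 135 and 3.15 CPM in Vsir-/- T-led cells, 44.8 and 1.30 CPM in tubule-led cells, and 31.9 and 4.73 CPM in endothelial-led cells. The values of 3.15 and 1.30 CPM rested on 1 UMI each, with log2 intervals of 2.85 to 10.77 and 2.56 to 10.45. The flattest S gene in T-led cells was Rrm1, at 218 and 182 CPM in WT and 221 and 194 CPM in Vsir-/- cells. Cenpf, Ube2c, and Cdc20 were the steepest G2/M genes of WT T-led cells, with log2 ratios of -2.91, -2.81, and -2.66. Top2a and Mki67 were flatter, at -0.73 and -0.93 there. Aurkb and Cdk1 lay at 0.43 and 0.10 in tubule-led cells, each with an interval that held 0. Stmn1 and Tubb5 moved little in T-led cells (-0.17 and -0.42 in WT, 0.37 and -0.21 in Vsir-/- cells).

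**Figure D4:**
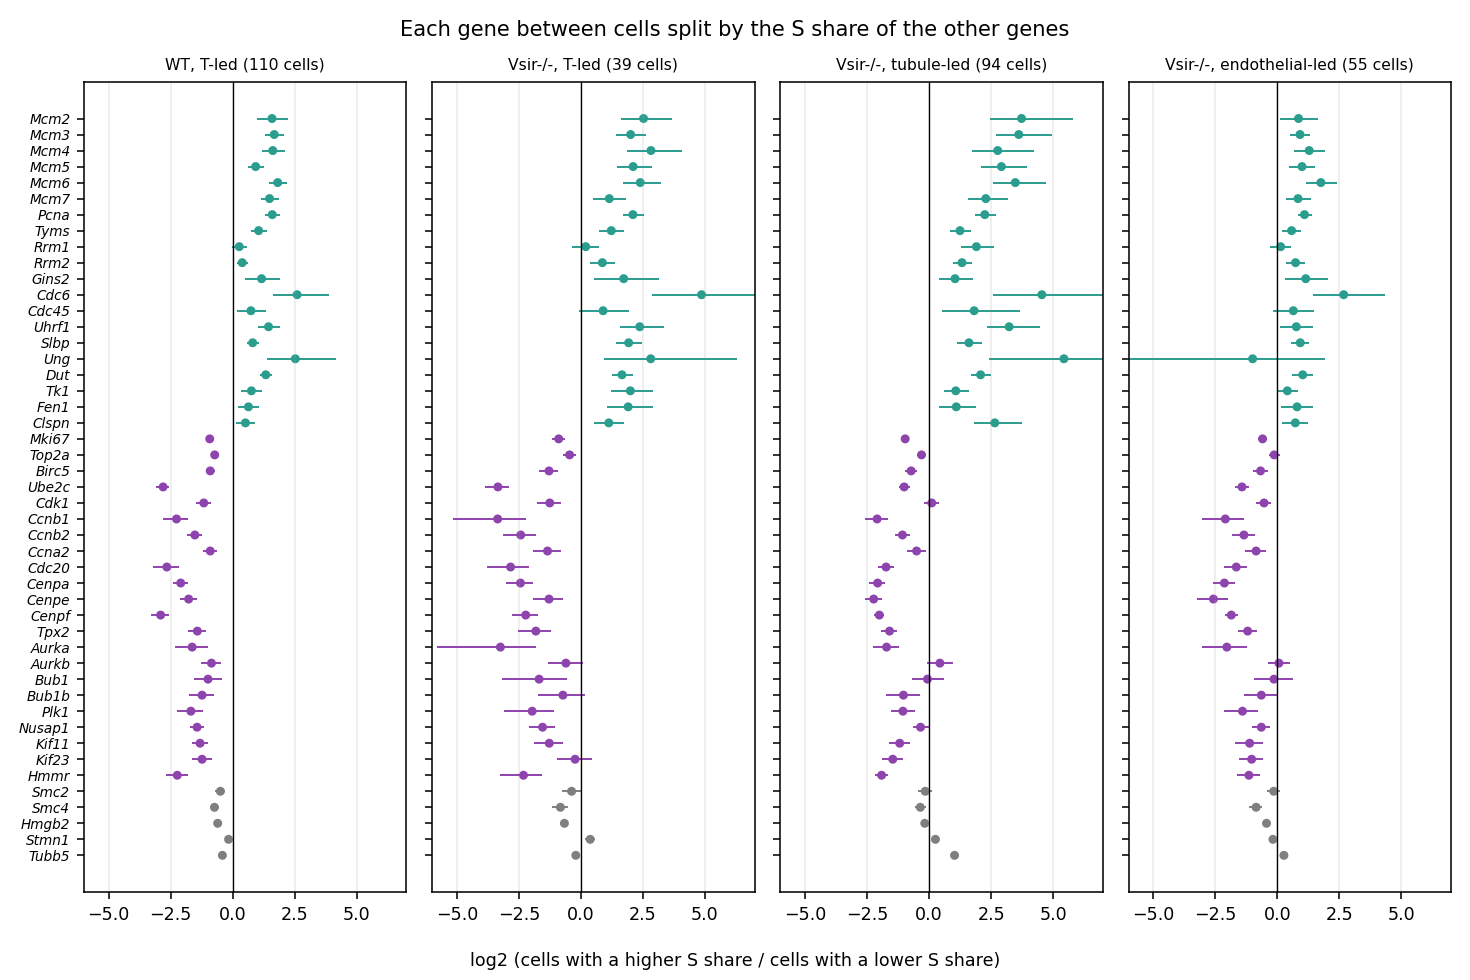
Log2 ratio of each gene in cells with a higher over cells with a lower S share, computed without that gene, for 4 groups of Proliferating cells; lines are exact conditional intervals, drawn to the edge of the axis where they run past it, with S genes green, G2/M genes purple, and the 5 others grey. S genes lie to the right of 0 except Ung in endothelial-led cells, and G2/M genes to the left except Cdk1 and Aurkb in tubule-led and Aurkb in endothelial-led cells.

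Cells with several members detected were next counted in every cluster. Each cell was thinned to 2000 UMIs and called cycling with at least 3 S genes or at least 2 G2/M genes detected. The cut is a range on a score and not a cell type: outside the Proliferating cluster 1173 WT and 342 Vsir-/- cells lay 1 gene below it, and 221 and 83 lay on it. Inside the cluster 115 of 115 WT cells (100%, 96.8 to 100) and 163 of 172 Vsir-/- cells (94.8%, 90.3 to 97.6) were called. Outside, 317 of 4824 WT cells (6.57%, 5.89 to 7.31) and 163 of 1487 Vsir-/- cells (11.0%, 9.42 to 12.7) were, after 528 and 168 shallower cells were left out. Without thinning the shares were 28.8% and 40.3%. With 1 gene more of each list they were 1.99% and 5.38%. The calls also differed in kind: genes of both lists passed in 81 of 115 WT and 90 of 163 Vsir-/- calls inside the cluster, but in 16 of 317 and 31 of 163 outside it, where 217 (WT) and 80 (Vsir-/-) rested on S genes alone.

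Neutrophils, which do not divide once mature, gave the background share, 1.13% (0.368 to 2.62) in WT and 1.99% (0.412 to 5.70) in Vsir-/- cells, at median depths of 3565 and 4097 UMIs. Their calls rested on G2/M genes, with 0 of 5 WT calls by S genes. Kif23, at 64.5 CPM there, was detected in 14.3% of WT and 15.2% of Vsir-/- neutrophils. Slbp was detected in 11.1% of WT neutrophils, 32.1% of WT NK cells and 27.3% of WT EM-like CD4+ T cells. Neutrophils may therefore be too low a background for lymphocyte calls by S genes. Other R2 macrophages (infiltrating macrophages outside the M2-like group) were at 1.20% and 3.33%, with intervals (0.146 to 4.28 and 0.916 to 8.31) that held the background.

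NK, NKT, and EM-like T cells stood above this background at the cut used. NK cells were called in 16.1% of 552 WT cells (13.2 to 19.5) and 29.2% of 65 Vsir-/- cells (18.6 to 41.8), and WT NKT cells in 18.0% of 50 cells (8.58 to 31.4). EM-like CD8+ T cells were called in 13.9% (9.19 to 19.8) and 17.9% (6.06 to 36.9), and EM-like CD4+ T cells in 11.4% (8.65 to 14.7) and 17.6% (12.9 to 23.1). The non-EM-like CD8+ and CD4+ clusters were lower, at 5.36% and 2.72% in WT and 10.0% and 5.35% in Vsir-/- cells. The Vsir-/- cluster named CD4+ T, non-EM-like held more tubule than T cell markers (see above), so its 5.35% cannot stand for T cells. With 1 gene more of each list, NK cells, EM-like CD4+ T cells and neutrophils were at 6.88%, 3.52% and 0.452% in WT. In Vsir-/- cells they were then at 24.6%, 5.15% and 0.662%. At 1000 UMIs the WT shares were 6.03%, 2.71% and 0.199%. Of the WT calls, 62 of 89 in NK and 33 of 52 in EM-like CD4+ T cells rested on S genes alone. The same held for 21 of 25 WT calls in EM-like CD8+ T cells and 8 of 9 in NKT cells. By G2/M genes 4 of 180 WT EM-like CD8+ T cells and 1 of 50 NKT cells passed, against 5 of 442 WT neutrophils. Whether the cells called by S genes alone divide was not tested. ILC2 cells, at 4.11% (0.856 to 11.5) and 15.8% (3.38 to 39.6), and the gdT cluster, at 6.67% (1.40 to 18.3) and 10.7% (2.27 to 28.2), had intervals that overlapped those of neutrophils. Cycling EM-like CD4+ T cells carried as much of the T cell list as the others, 5107 against 5071 CPM in WT and 4980 against 5191 CPM in Vsir-/- cells. They were deeper in total UMIs, with medians of 6409.5 against 5046 in WT and 7537 against 5765.5 in Vsir-/- cells. Cycling NK cells carried less of the 4 NK genes than the other NK cells, 2578 against 3160 CPM in WT and 1594 against 2400 CPM in Vsir-/- cells.

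Resident macrophages (R1) were called in 6 of 100 WT cells (6.00%, 2.23 to 12.6) and 35 of 177 Vsir-/- cells (19.8%, 14.2 to 26.4), a difference between 1 library each that has no test. The shares were 3.67% and 9.91% at 1000 UMIs per cell, and 4.00% and 11.3% with 1 gene more of each list. The cycling Vsir-/- R1 cells had 15239 CPM of 6 macrophage markers, against 15539 CPM in the other Vsir-/- R1 cells, and 895 against 728 CPM of endothelial and 1031 against 1665 CPM of tubule markers. In WT the 6 cycling R1 cells had 7982 CPM of macrophage markers against 13183 CPM in the others, and a median of 12753 UMIs against 5078. The phase UMIs of WT R1 were concentrated, with 64.6% in 5 of 116 cells, against 31.6% in 5 of 237 Vsir-/- cells. As a cluster, R1 stood at 505 (S) and 527 CPM (G2/M) in WT and at 702 and 631 CPM in Vsir-/- cells. Gene by gene, 9 of the 42 members with 20 or more UMIs were 2-fold or more higher in Vsir-/- R1 cells and 0 lower, beside 13.6% and 8.78% of 8862 genes, with a median log2 ratio of 0.39 against -0.01 over all genes. Cdk1 was highest of these, with a log2 ratio of 1.88 (0.67 to 3.69), followed by Aurkb at 1.69 (0.35 to 3.80) and Tk1 at 1.49 (0.62 to 2.61). The filter added the UMIs of both groups, so a gene sparse in 1 group could pass through the other.

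The pDC cluster was called in 3 of 21 WT cells (14.3%, 3.05 to 36.3) and 19 of 85 Vsir-/- cells (22.4%, 14.0 to 32.7). Its 4 dendritic markers were low in both libraries, at 627 to 869 CPM, and its cells were deep, so the cluster is given by its name only. B cells were called in 6.03% (4.53 to 7.83) of WT cells and in 1 of 57 Vsir-/- cells (1.75%, 0.0444 to 9.39). Of WT B cell calls 39 of 52 rested on S genes.

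**Figure D5:**
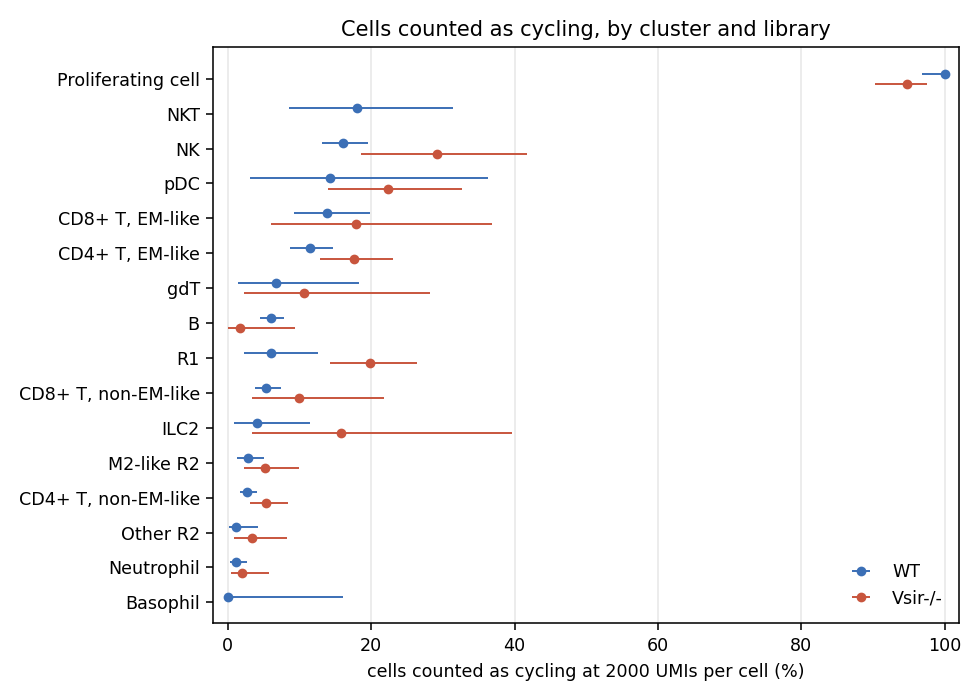
Percent of cells called cycling at 2000 UMIs per cell in each cluster, with Clopper-Pearson intervals; blue is WT and red Vsir-/-, and clusters under 19 cells are not drawn. The Proliferating cluster lies near 100%, NK, NKT, and pDC between 14.3% and 29.2%, and neutrophils at 1.13% and 1.99%. In the same range as NK, NKT and pDC lie Vsir-/- R1 (19.8%), EM-like CD8+ T (17.9%), EM-like CD4+ T (17.6%) and ILC2 cells (15.8%).

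The NK cluster was the other one compared gene by gene between libraries. Its S list stood at 892 CPM in WT and 1920 CPM in Vsir-/- cells, and its G2/M list at 222 and 1026 CPM. Of 41 members with 20 or more UMIs, 31 were 2-fold or more higher in Vsir-/- NK cells and 0 lower, beside 9.86% and 7.01% of 8963 genes, with a median log2 ratio of 1.60 against 0.07 over all genes. The other 6 members did not reach 20 UMIs. All 20 S genes passed this filter, with 14 called, and 16 of 22 G2/M genes, with 15 called. The 20 UMIs were counted over both groups together, so a gene sparse in WT could pass only through Vsir-/- cells. The count and median of the G2/M genes may in part reflect this filter. Top2a was at 258 CPM in Vsir-/- NK cells, with a log2 ratio over WT of 2.68 (2.33 to 3.02), and Birc5 had 3.32 (2.66 to 4.01). Among S genes Cdc6 had 2.50 (1.55 to 3.41), Rrm2 2.23 (1.61 to 2.82), and Slbp -0.01 (-0.33 to 0.29).

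These values rested on few cells. The 5 Vsir-/- NK cells with the most phase UMIs held 51.4% of the cluster's 1493, against 14.5% of 4187 for the top 5 of 594 in WT, and the highest single cell held 278. Without those 5 cells the Vsir-/- cluster stood at 1112 CPM for S and 731 CPM for G2/M, and 16 members were 2-fold or more higher than in WT. NK markers were at 2052 CPM in the Vsir-/- and 3056 CPM in the WT cluster, and tubule markers at 2229 and 50.6 CPM. By the marker lists used for Proliferating cells, 53 of the 67 Vsir-/- and 14 of the 594 WT NK cells were tubule-led. Without tubule-led cells the 14 Vsir-/- cells left stood at 1887 CPM for S and 1967 CPM for G2/M. The 580 WT cells then stood at 868 and 222 CPM, and 31 members were 2-fold or more higher. For neither check was the share over all genes worked out, so the counts of 16 and 31 cannot be set beside one.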

How the data were processed

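Per the labels and the study's methods, kidney cells were freed with 0.2 mg/ml liberase for 30 minutes at 37°C and captured on the 10x platform. The authors deposited raw counts (UMIs of each gene in each cell, whole numbers) and a table with each cell's library, cluster name, number of UMIs and percent of mitochondrial UMIs, which served here for an alternative limit of 5%. The submitters' processing notes name Cell Ranger 3.1.0, R 4.0.3, Seurat 3.2.3 and the build mm9, with no role given. Deposited coordinates of cells in a plot were not used.

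The 47 genes and the further lists were chosen with earlier results of these data known. For each cluster in each library, UMIs were added up and divided by all UMIs of the same cells (CPM), with exact Poisson, Clopper-Pearson and conditional ratio intervals at the 95% level. Log2 ratios added 0.5 UMIs to each count, and genes with fewer than 20 UMIs in both groups together were left out of counts and medians. With 1 library per genotype there is no p-value and no standard error, and a gene was called at 2-fold between groups or 4-fold against other cells. Cells were thinned to 2000 UMIs by random draws without replacement (seed 20). Doublets were not called here, and no removal by the authors is described in the methods or labels. All 47 genes are named, with the 3 highest and the 3 lowest of the further list and the 10 highest other genes with 100 or more UMIs in each library. The calls and the ratio intervals were tested on simulated counts, and the thinning on the deposited counts. The simulated counts followed the Poisson model that the intervals assume, with planted changes of 4-fold. They cannot show how the intervals hold where counts are uneven between cells. Python 3.11.15, numpy 2.4.6, scipy 1.17.1, pandas 2.3.3 and matplotlib 3.10.9 were used. Promoters were matched by gene symbol, with 38 of 43 listed promoters ending in bases of an annotated transcript of the gene, and that of Mcm6 not among them.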

Additional observations from a re-analysis of the deposited data

How the results depend on the processing

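The share of cycling cells depends on depth and cut, and its level is a matter of definition. Outside the Proliferating cluster (6.57% in WT, 11.0% in Vsir-/-) it was 1.83% and 5.50% at 1000 UMIs, 12.4% and 15.6% at 3000 UMIs, 28.8% and 40.3% without thinning, 30.9% and 34.0% with 1 gene fewer of each list, 1.99% and 5.38% with 1 gene more, and 3.30% and 7.87% without Slbp, Dut, Ung and Pcna. The Vsir-/- share was above the WT share under each of these. Inside the cluster it was 95.7% in WT and 86.9% in Vsir-/- cells at 1000 UMIs, and in Vsir-/- cells 99.4% at 3000 UMIs, 100% without thinning and 99.4% with 1 gene fewer. Neither leaving out cells above 5% mitochondrial UMIs nor leaving out the 5 shared barcodes moved any of these 4 shares past its interval.

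The S share of phase UMIs in the cluster (35.1% in WT, 27.1% in Vsir-/-) was 39.3% and 31.3% as a mean over cells, 27.0% and 20.2% without those 4 genes, and 33.2% and 33.3% in T-led cells without an NK UMI. In Vsir-/- cells alone it moved to 30.5% in cells with a T cell transcript, 31.3% in T-led cells, and 26.6% without the cell with the most phase UMIs. As a mean over cells the G2/M list was at 6452 CPM in WT, and in Vsir-/- cells the S list was at 2457 and the G2/M list at 6981 CPM, above the WT value. The Vsir-/- S list was at 1928 CPM with at most 5% mitochondrial UMIs. In T-led cells the Vsir-/- lists were at 3640 and 7974 CPM, and without an NK UMI S was at 3444 (WT) and 3904 CPM (Vsir-/-) and G2/M at 6932 and 7819 CPM, also above WT.

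The median ratio of Vsir-/- over WT cells with a T cell transcript (-0.30) changed sign as a mean over cells (0.08), in cells with 2 or more T cell UMIs (0.01), in T-led cells (0.24) and in T-led cells without an NK UMI (0.14), so no direction holds for it. It was -0.61 over all cells of the cluster, where 11 members were 2-fold apart, and -0.51 after the median of all genes was taken off, where 2 were. For neither count was the share over all genes worked out. The 1 member apart without an NK UMI was Cdc6. The counts of members 4-fold higher in the cluster (43 and 34) stayed within 1.5 times under all 5 alternatives run. The count of 31 members higher in Vsir-/- NK cells was 16 without the 5 cells with the most phase UMIs and 31 without tubule-led cells. Neither of these counts has a share over all genes beside it. Which of these choices causes a shift was not tested. The grouping by leading marker list, its NK refinement, the NK checks and the removal of shared barcodes were chosen after seeing the data. No paired analysis was possible because each genotype has 1 library and the labels give no replicate numbers.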
